A study of Mus musculus with 384 samples.

Results

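The wells described here are 54 single-cell wells of the Lgr5 line in which transcripts of Ptprc and Pecam1 were found together. They were selected on measured values, as the single-cell wells of that line with both genes at 1 TPM or more (a read count scaled for transcript length and for the total of the well), and they are 54 of the 190 wells of the line and of the 380 single-cell wells of the series. Lgr5 mouse 1 gave 31 of them and Lgr5 mouse 2 gave 23, of 95 wells each, which is 28.4% of the line (exact Clopper-Pearson 95% interval 22.1 to 35.4%). All of them were left out of the study's own analysis, whose filter asked for both genes below 1 TPM.

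The study sorted lung cells from 2 mice of each of 2 lines and sequenced the mRNA of single wells by a modified SmartSeq2 protocol. The Lgr5-CreERT2;R26-Tom mice carry a tamoxifen-inducible Cre recombinase driven by Lgr5 and a tdTomato reporter that the Cre switches on, so that tdTomato marks cells that expressed Lgr5 at induction and their progeny. Their cells were taken as negative for CD31, CD45, CD11b and TER119 and positive for tdTomato, and the cells of the Lgr6-EGFP-CreERT2 mice as negative for the same surface proteins and positive for GFP. Mice were 7 to 10 weeks old in most experiments, and dead cells were excluded with DAPI. Every well of both lines has the label CD31-, CD45-, CD11b- and TER119-, and the 54 wells go against it at the level of RNA. The other Lgr5-line wells fall into 18 removed wells with Ptprc only, 29 removed wells with Pecam1 only, 32 removed wells with neither gene and 57 wells that the study kept. In the Lgr6 line, 0 of 190 wells held both genes, which allows a share of up to 1.58% when 3 wells stand in for 0, while 3 held Ptprc and 0 held Pecam1.

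Ptprc encodes CD45, a receptor tyrosine phosphatase on the surface of nearly all nucleated blood cells, where it sets the activity of Src-family kinases. Pecam1 encodes CD31, an adhesion molecule at the junctions of endothelial cells, through which leukocytes pass when they leave a vessel, and which platelets and several kinds of leukocyte also carry. Antibodies to both proteins are commonly used together to take blood and vessel cells out of a lung suspension before mesenchymal cells are sorted.

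Depth did not set the 54 wells apart from the kept wells in a single direction. The wells had a median of 294721 counts in mouse 1 and 103491 in mouse 2, and the kept wells of the same mice had 263129 and 272729. Single wells ran from 5805 to 1349918 counts among the 54 and from 26546 to 1983295 among the kept. No 2 libraries held identical counts. Rn45s, the precursor of ribosomal RNA, took a median of 15.03% of the reads in the 54 wells and 32.8% in the kept wells, and without it 0.976% of genes passed in the comparison with the kept wells given below. The libraries were amplified without molecular identifiers, so a count is a read and not a molecule, and the intervals given with shares stand for counting error alone. The replicate is the mouse, and comparisons rest on the counts of the wells summed per mouse and group.

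In the mm10 (GRCm38) build Ptprc spans bases 138062861 to 138175708 of chromosome 1, and Pecam1 bases 106654217 to 106750628 of chromosome 11. Among the 54 wells, Ptprc ran from 2.26 to 329 TPM with a median of 51.8 TPM. Pecam1 ran from 1.78 to 839 TPM with a median of 213 TPM, and it was the higher of the pair in 39 wells. These values chose the wells and are given as a description. The selected well nearest the threshold had Ptprc at 60.9 TPM and Pecam1 at 1.78 TPM, and the well nearest it from outside had Ptprc at 335 TPM and Pecam1 at 0.923 TPM. Few wells lay near the limit. Both genes reached 10 TPM in 46 of the 54 wells, and in 43 of the 47 wells with a single one of the genes the other was at 0. Across wells the levels of the 2 genes had a Pearson r of -0.15 in mouse 1 (n = 31 wells) and -0.25 in mouse 2 (n = 23 wells).

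Most of the 54 wells held many other transcripts of leukocytes and of endothelial cells at once. A list of 12 pan-leukocyte genes and a list of 12 endothelial genes, neither of which holds Ptprc or Pecam1, were used to ask this, and a well was said to carry a list when at least 1 in 3 of its measured genes had 1 TPM or more. Both lists were carried by 48 of 54 wells, or 88.9% (exact Clopper-Pearson 95% interval 77.4 to 95.8%). This was 28 of 31 wells in mouse 1 and 20 of 23 in mouse 2. A further 3 wells carried the leukocyte list alone, 2 the endothelial list alone and 1 neither. Both lists were carried by 4 of 18 wells with Ptprc only (22.2%, interval 6.41 to 47.6%), by 12 of 29 wells with Pecam1 only (41.4%, interval 23.5 to 61.1%), and by 1 of 57 kept wells (1.75%, interval 0.0444 to 9.39%). Wells were also thinned to 79000 reads, where a gene counted at 1 read or more in place of 1 TPM. This left out 10 of the 54 wells and 2 of the kept wells as too shallow, all of them from mouse 2. In mouse 2, 13 of the 23 wells remained. Of the wells left, 40 of 44 (90.9%) and 1 of 55 kept wells (1.82%) carried both.

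**Figure D1:**
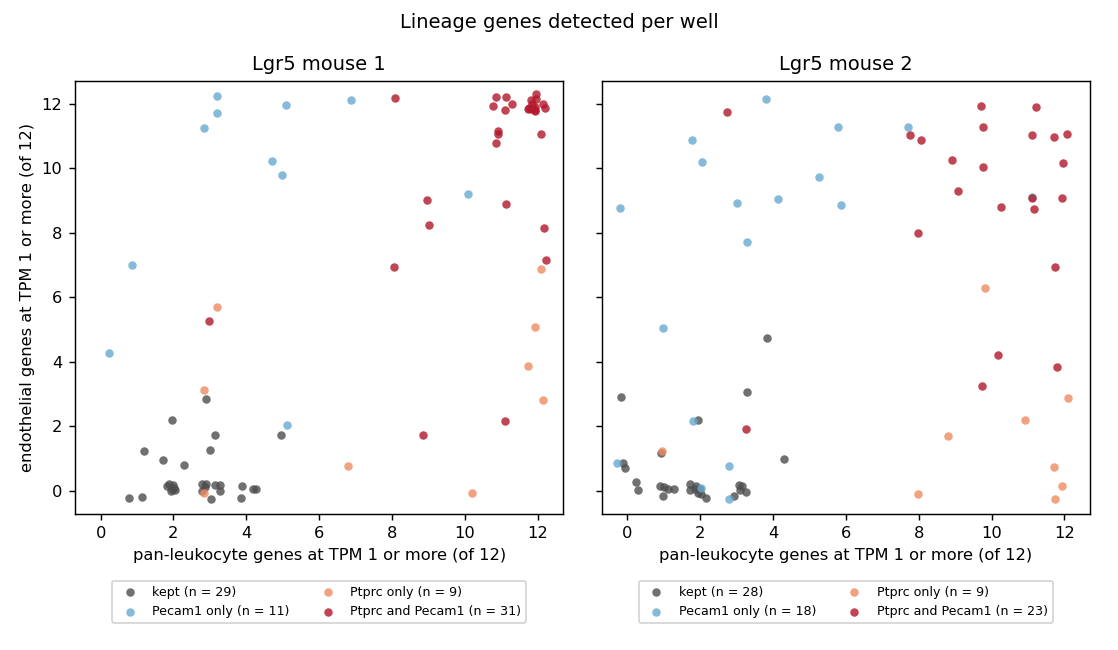
Number of the 12 pan-leukocyte genes (horizontal) against number of the 12 endothelial genes (vertical) at 1 TPM or more in each well of Lgr5 mouse 1 and Lgr5 mouse 2, with a small random shift so that points do not cover each other. The wells with Ptprc and Pecam1 lie mostly at the upper right (medians of 11 and 11 genes), the wells with Ptprc only at the lower right (10.5 and 2), the wells with Pecam1 only mostly at the upper left (3 and 9), and the kept wells at the lower left (2 and 0).

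In mouse 1, 12 wells held every gene of both lists, and in mouse 2, 0 wells did. The median well of the 54 held 11 leukocyte genes and 11 endothelial genes, and the lowest held 3 and 2. The kept wells had medians of 2 and 0 genes and at most 5 and 5. The level of the leukocyte list and that of the endothelial list, each a mean of log2(TPM + 1) over its genes, had a Pearson r of 0.18 across the 31 wells of mouse 1 and -0.05 across the 23 wells of mouse 2.

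Single genes of both lineages were found in most of the 54 wells and in few kept wells. Laptm5, a lysosomal protein of blood cells, was at 1 TPM or more in 50 of the 54 wells with a median of 151.97 TPM, and in 5 of 57 kept wells. Coro1a, which binds actin in leukocytes, was found in 48 of the 54 wells with a median of 244 TPM, and in 3 kept wells. Cdh5, the cadherin of endothelial junctions, was found in 48 wells with a median of 41.2 TPM, and in 1 kept well. Tek, the receptor for angiopoietins, was found in 45 wells with a median of 72.7 TPM, and in 1 kept well.

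The counts summed per mouse allow a test of the genes that the rule did not use. Against the kept wells, 15632 genes were tested with edgeR's quasi-likelihood method, with the mouse as a block, at a Benjamini-Hochberg adjusted p of 0.05. In the wells with Ptprc and Pecam1, 0.966% of these genes were higher and 0.0896% lower, the latter being 14 genes. The 14 include the tdTomato reporter, whose level was part of the filter that chose the kept wells, so its call is no independent result. The share called in either direction was 1.06%, and 0.390% without the deepest well of each sum. DESeq2 called 7.04%. The kept wells were chosen by the study for an absence of the same 2 genes, so the contrast sets wells selected for them against wells selected for lacking them. Levels below are CPM, counts scaled to the TMM-normalized total of the summed wells and not divided by gene length, given for mouse 1 and then mouse 2. Log2 fold changes are those of the wells with Ptprc and Pecam1 over the other group, with a standard error (SE). The SE was worked back from the test, as the absolute log2 fold change over the square root of the F statistic, and was not fitted itself. Where the other group held 1 to 3 counts in all, the ratio of the pooled counts is given instead, with its exact 95% interval for counting error. The median log2 fold change of all genes tested was 0.40.

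All 12 pan-leukocyte genes were tested and were higher in both mice, with a median log2 fold change of 6.69, and 3 of them passed the test. Of all genes tested, 40.1% were higher in both mice. Cd53, a tetraspanin of leukocytes, stood at 148.9 and 273 CPM against 0 and 0.176 CPM in the kept wells. By pooled counts it was 2418-fold higher (interval 669 to 19972), and it passed (edgeR with Benjamini-Hochberg adjusted p = 0.00158). Arhgdib, which blood cells express, stood at 126.2 and 189.7 CPM against 0.114 and 0 CPM and was 3811-fold higher (interval 683 to 150580). Cd52, a small glycoprotein of lymphocytes and monocytes, stood at 72.1 and 75.9 CPM against 0.114 and 0 CPM and was 1952-fold higher (interval 349.8 to 77152). The intervals are wide because the kept wells held 1 or 2 counts of each gene. Without the wells that held both Xist and a Y-linked gene, described below, 0 of the 12 genes passed.

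The other pan-leukocyte genes did not pass. Laptm5 stood at 349 and 618 CPM against 7.04 and 0 CPM (log2 fold change 6.78, SE 1.85, edgeR with Benjamini-Hochberg adjusted p = 0.144). Coro1a stood at 302 and 288 CPM against 2.16 and 30.2 CPM (5.71, SE 1.48). Itgb2, the shared chain of the leukocyte integrins, stood at 174.5 and 206 CPM against 3.52 and 0.0878 CPM (6.59, SE 1.56). For Lcp1, an actin-bundling protein of blood cells, the kept wells of the 2 mice were far apart: 284 and 541 CPM against 2.27 and 86.97 CPM. Rac2, a GTPase of blood cells, and Vav1, its exchange factor, had counts in the kept wells of both mice and log2 fold changes of 3.24 and 2.23.

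Of the 12 endothelial genes, all of which were tested, 8 rose and 0 fell, and the list had a median log2 fold change of 7.28. Cldn5, the claudin of endothelial tight junctions, stood at 1231 and 915 CPM against 1.136 and 0.878 CPM, with a log2 fold change of 10.03 (SE 0.63, edgeR with Benjamini-Hochberg adjusted p = 0.000174). Tek stood at 304 and 180.9 CPM against 0 and 0.351 CPM, with a log2 fold change of 10.0 (SE 1.45). Tie1, a receptor kinase related to Tek, stood at 198 and 83.4 CPM against 0.114 and 0 CPM and was 4498-fold higher by pooled counts (interval 807 to 177710). For each of these genes both sums of the 54 wells lay above both sums of the kept wells. Cdh5 stood at 169.1 and 88.7 CPM against 0 and 0.351 CPM, with a log2 fold change of 9.0 (SE 1.64). Without the deepest well of each sum 5 of the 12 genes passed, and without the wells with Xist and a Y-linked gene 1 did.

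Egfl7, which endothelial cells secrete, Ramp2, a partner of the adrenomedullin receptor, and Esam, an adhesion molecule, also passed, with log2 fold changes of 6.08, 8.48 and 3.93. Robo4, an endothelial roundabout receptor, had 66.4 and 49.1 CPM and no count in the kept wells of either mouse. This puts it at least 551-fold higher when 3 counts over the group stand in for 0. A gene without counts there enters the test only through other groups, so the direction of Robo4 was fixed beforehand. Kdr, the main receptor for VEGF on endothelium, did not pass. It had 164.1 and 74.2 CPM against 0 and 96.2 CPM, and its level in the kept wells of mouse 2 lay within the range of the 54 wells. Flt1, another VEGF receptor, and the transcription factors Sox18 and Erg did not pass either, with log2 fold changes of 4.82, 4.64 and 1.98. For Erg the values were 18.5 and 14.5 CPM against 52.3 and 0 CPM.

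**Figure D2:**
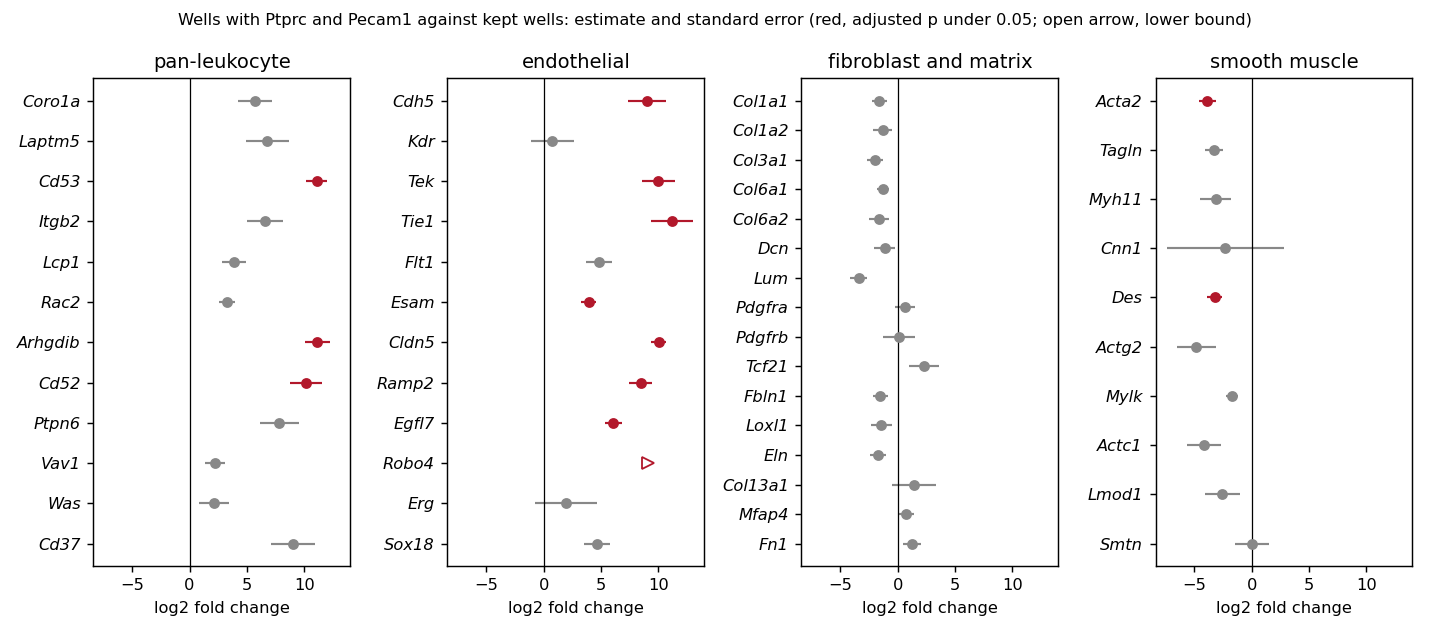
Log2 fold change (horizontal) of each gene of 4 lists (vertical) between the wells with Ptprc and Pecam1 and the kept wells, from counts summed per mouse, n = 2 mice. Bars on the points are the standard error worked back from the F statistic of the test. Red marks genes with an adjusted p under 0.05, and the open arrow marks Robo4 at its lower bound. The pan-leukocyte and endothelial genes lie to the right of 0, while the 10 smooth muscle genes lie to the left, apart from Smtn at 0.05.

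Lists drawn up for single blood lineages were carried as well, and several of them often in the same well. Their genes need not be confined to 1 lineage. In the sums of the 54 wells, 1 gene gave 993 of the 1186 CPM of the B cell list in mouse 1 and 343 of 545 CPM in mouse 2. The lists of B cells, of T and NK cells, and of monocytes and macrophages were carried by 43, 38 and 40 of the 54 wells, and all of these lists together by 26 wells, or 48.1% (exact Clopper-Pearson 95% interval 34.3 to 62.2%). In the kept wells the numbers were 1, 0 and 0 of 57, and 0 wells carried them together, which allows a share of up to 5.26% when 3 wells stand in for 0. Of 7 lists of blood cell kinds, the median well of the 54 carried 5 and the median kept well 1. The median was 2 in the wells with Ptprc only and 1 in those with Pecam1 only. Of all 23422 genes, the median well had 9223.5 at 1 TPM or more among the 54 and 3687 among the kept. A well with more genes at 1 TPM reaches 1 in 3 of a list more easily. Whether the lists stand for separate kinds of cell in a well was not tested. The neutrophil list was carried by 53 of the 54 wells but also by 34 of the kept wells. The platelet list was carried by 16 of the 54 wells and by 0 kept wells.

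Of the 9 monocyte and macrophage genes tested, 5 rose. The count was 3 without the deepest well of each sum and 0 of 8 without the wells with Xist and a Y-linked gene. Csf1r, the receptor for colony stimulating factor 1, stood at 125.2 and 185.3 CPM against 0.114 and 0.614 CPM (log2 fold change 8.92, SE 0.91). Cd68, a lysosomal glycoprotein of macrophages, stood at 51.2 and 70.2 CPM against 0.114 and 0 CPM (1499-fold by pooled counts, interval 268 to 59255). Both were close to 0 in the kept wells of each mouse. The protease Ctss and the Fc receptor Fcgr3 had no count in the kept wells and were at least 2551-fold and 439-fold higher. The direction of these genes was fixed beforehand, as for Robo4. Lyz2, the lysozyme of myeloid and of alveolar type II cells, had 4091 and 10155 CPM against 5104 and 8245 CPM, with a log2 fold change of 0.03. Itgam, which encodes the CD11b of the sort gate, was at 1 TPM or more in 49 of the 54 wells and in 32 of 57 kept wells, and its log2 fold change of 1.78 (SE 1.01) did not pass.

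More specialised blood cell lists also held members that rose. These were 3 of 6 alveolar macrophage genes, 2 of 10 T and NK cell genes and 1 of 6 neutrophil genes. Further members were 1 of 7 dendritic cell genes and 1 of 5 mast cell genes, the latter being Gata2. A gene of these lists need not be confined to the cell kind of its list. Whether Gata2 came from mast cells or from other cells, endothelial cells among them, was not tested. Without the deepest well of each sum, Ear2, Ccr7 and Gata2 passed from these lists, and without the wells with Xist and a Y-linked gene 0 genes did. Marco, a scavenger receptor, rested on mouse 2, with 1.95 and 427 CPM in mice 1 and 2, while Ear2, a ribonuclease of eosinophils and alveolar macrophages, had 90.4 and 184.3 CPM. Cd2, an adhesion receptor of T cells, passed with 18.2 and 36.5 CPM, and Lck, a kinase of T cells, with 39.5 and 73.8 CPM. Cd3e, a chain of the T cell receptor complex, was at 1 TPM or more in 32 of the 54 wells and in 0 of the kept wells. Its 13.2 and 18.4 CPM lay at least 129.3-fold above the kept wells at 3 counts, a direction fixed beforehand. It did not pass (edgeR with Benjamini-Hochberg adjusted p = 0.157).

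None of the 8 B cell genes passed, nor any of the 5 platelet genes tested, although all of them were higher in both mice. Of 8 platelet genes, 5 had enough counts for the test, and in the kept wells of each mouse 3 of these 5 had no count. A gene absent from the kept wells can enter the test only through other groups, so its direction against them was fixed beforehand and is a description. Cd79a, part of the B cell receptor, had 47.2 and 39.97 CPM against 9.43 and 0.0878 CPM. Pf4, the platelet chemokine, had 26.02 and 45.5 CPM and no count in the kept wells. The median log2 fold changes of these lists were 3.91 and 10.65, or 3.73 and 7.01 with the genes that had no count in the kept wells at their bound.

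Genes of several kinds of vessel were found. Of 8 genes that differ between lung vessels, 3 rose: Vwf, the clotting factor of larger vessels, Plvap, a protein of endothelial diaphragms, and Sox17, a factor of arteries. Sox17 did not pass without the deepest well of each sum, and Vwf alone passed without the wells with Xist and a Y-linked gene. Vwf stood at 137.4 and 347 CPM against 0.114 and 0 CPM and was 5128-fold higher by pooled counts (interval 919.8 to 202590). Plvap stood at 453 and 55.8 CPM against 5.23 and 1.67 CPM. Ednrb and Car4, which mark a capillary cell of the alveolus, did not pass. Ednrb, an endothelin receptor, stood at 97.7 and 49.5 CPM against 222 and 121.7 CPM, and Car4, a carbonic anhydrase, at 211 and 149.4 CPM against 16.6 and 0.878 CPM. Among lymphatic genes Lyve1, a hyaluronan receptor that some macrophages also carry, and Flt4, a receptor for VEGF-C, rose, 2 of 5 tested. Lyve1 had a log2 fold change of 6.10 (SE 1.12), and Flt4 was 252-fold higher by pooled counts (interval 85.8 to 1226). Flt4 did not pass without the deepest well of each sum, and neither passed without the wells with Xist and a Y-linked gene. Prox1, the defining factor of that lineage, had too few counts for the test and was at 1 TPM or more in 8 of the 54 wells.

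**Figure D3:**
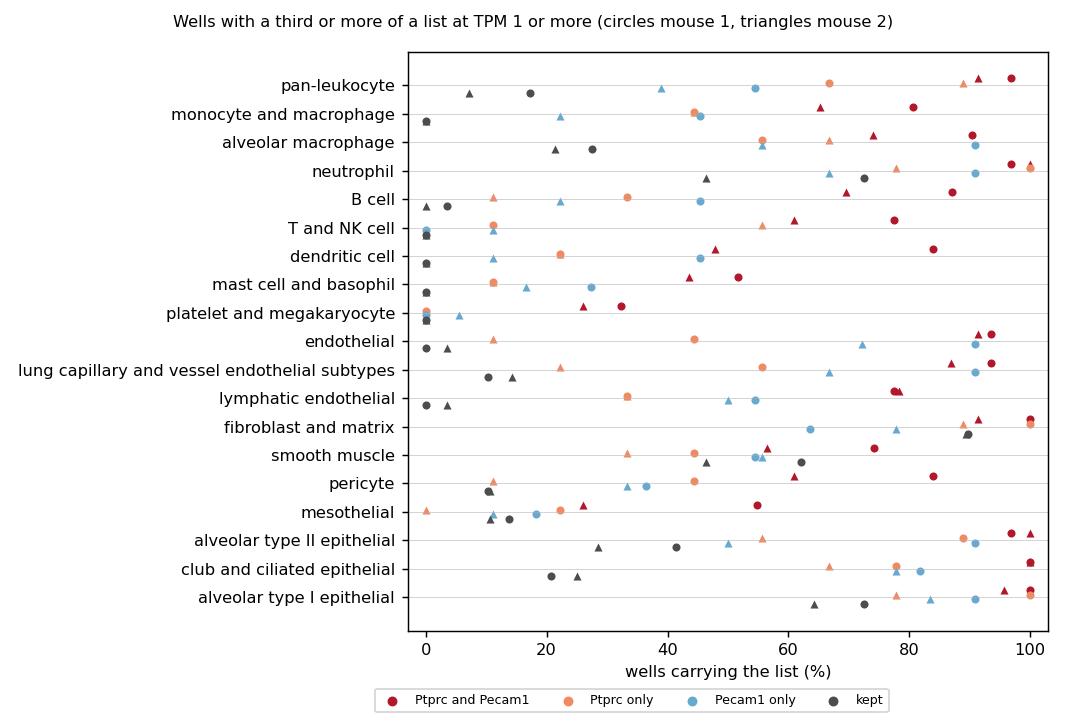
Percentage of wells (horizontal) that carried each of 19 gene lists (vertical), by group of wells (colour) and mouse (circles for mouse 1, triangles for mouse 2). The wells with Ptprc and Pecam1 lie between 91.3% and 96.8% for the pan-leukocyte and endothelial lists, and the kept wells between 0 and 17.2%, while the fibroblast and matrix list was carried by 89.3% or more of the wells in both groups and both mice.

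Outside the lists, the 5 genes with the largest fitted increase past the threshold and alike in both mice were Tyrobp, Fcer1g, Cd69, Clec4e and Il10ra. Tyrobp and Fcer1g are signalling adaptors of immune receptors, Cd69 is an activation marker of lymphocytes, Clec4e a lectin receptor of macrophages and Il10ra a chain of the interleukin 10 receptor. None had a count in the kept wells, and with 3 counts in place of 0 they were at least 1924-fold, 1607-fold, 782-fold, 1207-fold and 404-fold higher. As for the platelet genes without counts, their direction against the kept wells was fixed beforehand, so it is a description. Tyrobp stood at 198 and 267 CPM and Il10ra at 40.1 and 60.2 CPM. Cd69 and Il10ra did not pass without the deepest well of each sum, and of the 5 genes Tyrobp alone passed without the wells with Xist and a Y-linked gene.

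Mesenchymal genes were detected in the 54 wells too. The fibroblast and matrix list was carried by 52 of the 54 wells and by 51 of 57 kept wells, and the median well held 12.5 of the 16 genes against 9 in the kept wells. Pdgfra, a receptor of fibroblasts, was at 1 TPM or more in 33 of the 54 wells and in 6 of the kept wells. The summed level of the list had a median of 1613 TPM in the 54 wells against 4035 TPM in the kept wells. None of the 16 genes passed the test, 9 of them were lower in both mice and 3 higher, beside 20.3% and 40.1% of all genes tested. Their median log2 fold change was -1.29. Col1a1 stood at 274 and 112.6 CPM against 598 and 470.1 CPM (log2 fold change -1.59, SE 0.67, edgeR with Benjamini-Hochberg adjusted p = 0.384). Col3a1 stood at 635 and 298 CPM against 1266 and 2034 CPM (-1.99, SE 0.70), and Lum, a proteoglycan of collagen fibrils, at 122.5 and 60.6 CPM against 1003 and 1080.2 CPM (-3.39, SE 0.76). For these 3 genes both mice of the 54 wells lay below both mice of the kept wells. All 3 are from the 9 lower genes and fell further than the median of the list, and Lum was picked after its values were seen. They do not stand for the genes of the list that were higher.

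Of 10 smooth muscle genes 2 fell, and the median log2 fold change of the list was -3.19. Neither passed without the deepest well of each sum, nor without the wells with Xist and a Y-linked gene. Acta2, smooth muscle actin, at bases 34241090 to 34255590 of chromosome 19, stood at 73.7 and 52.4 CPM against 1215 and 599.5 CPM in the kept wells, and fell by 3.86 on the log2 scale (SE 0.72, edgeR with Benjamini-Hochberg adjusted p = 0.0355). Des, the intermediate filament of muscle, stood at 125.3 and 65.02 CPM against 1466 and 417 CPM and fell by 3.23 (SE 0.63). Tagln, Myh11 and Cnn1 did not pass, and the kept wells of the 2 mice differed widely for Cnn1: 1.82 and 6.12 CPM against 1189 and 0.614 CPM. By wells, Acta2 was at 1 TPM or more in 36 of the 54 wells and in 31 of the 57 kept wells, with medians of 22.4 and 20.04 TPM and highest values of 662 and 7996 TPM. Reads of Acta2 can be shared with the related actins Actg2 and Actc1. Of 7 pericyte genes 0 passed, and their median log2 fold change was 3.19. In both mice 5 of them were higher and 2 lower, beside 40.1% and 20.3% of all genes tested. Notch3, a receptor of mural cells, had 61.9 and 39.8 CPM against 0.341 and 1.40 CPM. Kcnj8, a potassium channel of pericytes and 1 of the 2 lower genes, had 30.4 and 39.6 CPM against 423 and 198 CPM. Of 6 mesothelial genes 0 passed, with a median of 3.16, and 3 were higher and 0 lower in both mice.

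The 5 genes outside the lists that fell furthest were Synpo2, an actin-binding protein of muscle, Penk, the precursor of enkephalins, Acbd4, a protein that binds acyl-CoA, Igfbp3, a binding protein of insulin-like growth factors, and Arrdc3, an arrestin-like adaptor. They fell by 4.28, 3.91, 3.73, 3.64 and 3.26 on the log2 scale. Igfbp3 stood at 169.9 and 60.05 CPM against 1389.5 and 1668 CPM. Penk stood at 17.7 and 16.1 CPM against 173.7 and 398 CPM. Hhip, an inhibitor of hedgehog signalling, and Enpp2, the enzyme that makes lysophosphatidic acid, which were picked after their values were seen, fell by 2.77 and 2.75. Of these 7 genes Synpo2 alone passed without the deepest well of each sum, and 0 passed without the wells with Xist and a Y-linked gene.

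Lgr5, the receptor that names the line, was not among the genes that passed. The gene, at bases 115450311 to 115587780 of chromosome 10, stood at 100.4 and 62.7 CPM against 845 and 464 CPM (log2 fold change -3.01, SE 0.98, edgeR with Benjamini-Hochberg adjusted p = 0.251). By wells it was found in 38 of the 54 wells with a median of 12.4 TPM and in 40 of the 57 kept wells with a median of 86.1 TPM. Lgr6, its relative, was found in 15 of the 54 wells and in 17 of the kept wells. The tdTomato reporter had a median of 236 TPM in the 54 wells against 2202 TPM in the kept wells, and passed the study's limit of 32 TPM in 41 of the 54 wells. That limit was one of those by which the kept wells were chosen, so the reporter is given as a description, although it is counted among the 14 lower genes.

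Epithelial transcripts were found in almost every one of the 54 wells. The alveolar type II list was carried by 53 wells and the club and ciliated list by all 54, against 20 and 13 of the 57 kept wells. Sftpc, a surfactant protein of type II cells, was at 1 TPM or more in 52 of the 54 wells, with a median of 962 TPM, and in 22 of the kept wells. In the sums, where a single well can weigh heavily, Sftpc stood at 5237 and 16522 CPM against 52926 and 31932 CPM (log2 fold change -1.86, SE 0.60), which did not pass. By mean log2(TPM + 1) over wells the difference had the other sign, at 7.74. The highest kept well had 603328 TPM of Sftpc. Scgb1a1, the secretory protein of club cells, was at 1 TPM or more in all 54 wells, with 101.4 TPM in the lowest, and in 22 kept wells. The leukocyte and endothelial lists, the fibroblast list and the type II list were carried together by 45 of the 54 wells, or 83.3%, and by 1 of the 57 kept wells. These shares are a description, since wells of both groups were chosen on measured values. Epithelial RNA was not particular to the 54 wells. The genes of the type II list summed to 6963 and 20534 CPM in them and to 70274 and 43434 CPM in the kept wells. The sums were 24581 and 18615 CPM in the wells with Ptprc only, and 34218 and 12560 CPM in those with Pecam1 only. The 54 wells thus lay below both single-gene groups in mouse 1 and above both in mouse 2.

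Counted over 9 lineages (leukocyte, endothelial, fibroblast, smooth muscle, pericyte, mesothelial, type II, club and ciliated, and type I), each of the 54 wells carried at least 5, and 18 carried all 9. The median was 8 lineages in mouse 1 and 7 in mouse 2. Kept wells carried a median of 3 in each mouse. After thinning, with a gene counted at 1 read or more, the medians were 8 and 7 against 3 and 2. Wells with Ptprc only carried a median of 5 and wells with Pecam1 only a median of 6. Of all 23422 genes, the median well had 9223.5 at 1 TPM or more among the 54 and 3687 among the kept. The medians were 5509.5 in the wells with Ptprc only and 5923 in those with Pecam1 only. A well with more genes at 1 TPM reaches 1 in 3 of any list more easily. How far the lineages carried follow from the number of genes was not tested.

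The number of genes per well was high in the 54 wells. They had 2404 to 13464 genes with a count above 0 and a median of 9996.5. Mouse 1 had a median of 11263 and mouse 2 of 7490 genes, against 4277 and 3640 in the kept wells, 6404 and 5955 in the wells with Ptprc only, and 7520 and 5610.5 in the wells with Pecam1 only. After thinning to 79000 reads, the medians were 8301 and 6704 in the 54 wells against 3383 and 2958.5 in the kept wells. The value of 6704 rests on the 13 wells of mouse 2 that were deep enough. The study's filter took out wells with few genes and the 1% of wells with the most, so these numbers are a description without a test. Across wells, the number of genes and the number of lineages carried had a Pearson r of 0.78 in mouse 1 (n = 31) and 0.56 in mouse 2 (n = 23), where both rest on the same libraries. The number of reads and the number of genes had an r of 0.12 and 0.44.

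**Figure D4:**
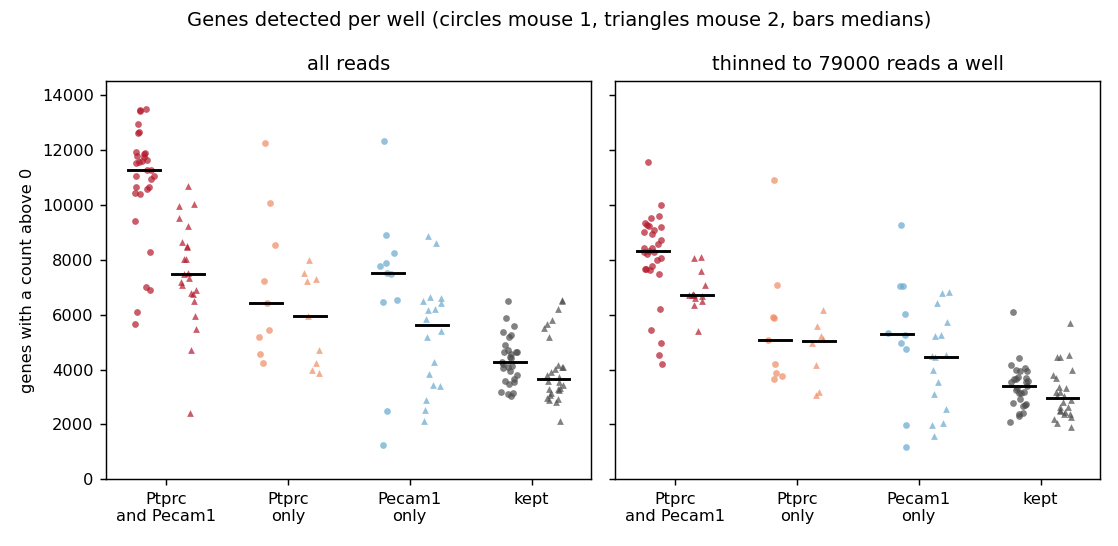
Genes with a count above 0 in each well (vertical), by group of wells (horizontal) and mouse, with all reads at the left and after thinning each well to 79000 reads at the right, where shallower wells are left out. Bars are medians, which in the wells with Ptprc and Pecam1 were 11263 and 7490 genes with all reads and 8301 and 6704 after thinning, above those of the other groups of the same mouse, though single wells overlap.

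Transcripts of both sexes were found together in most of the 54 wells. Xist, which is expressed from the inactive X chromosome of female cells, and at least 1 of 4 Y-linked genes (Ddx3y, Kdm5d, Uty and Eif2s3y) were both at 1 TPM or more in 40 of 54 wells, or 74.1% (exact Clopper-Pearson 95% interval 60.3 to 85.04%), being 25 of 31 in mouse 1 and 15 of 23 in mouse 2. This was so in 9 of 57 kept wells (15.8%, interval 7.48 to 27.9%), while 35 kept wells held a Y-linked gene without Xist. It was so in 13 of 18 wells with Ptprc only and in 10 of 29 wells with Pecam1 only. A well with more genes at 1 TPM reaches both more easily, and the median well had 9223.5 such genes among the 54 and 3687 among the kept. The sex of the mice is not given by the labels. Without the wells that held Xist and a Y-linked gene, 9 of the remaining 14 wells (64.3%) carried both the leukocyte and the endothelial list. With such wells left out of every group, 6 genes were higher and 1 lower than in the kept wells, of 12977 tested, and 1 gene of the endothelial list and 0 of the pan-leukocyte list passed. Fewer wells stood behind those sums, and how far RNA of other cells enters the comparisons was not tested.

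Haemoglobin transcripts differed from gene to gene. Hbb-bh1, an embryonic beta-like globin whose reads can be shared with the adult beta globins, was found in 43 of the 54 wells with a median of 90.8 TPM and in 55 of the 57 kept wells with a median of 2119 TPM. In the sums it stood at 119.6 and 17.02 CPM against 342 and 352 CPM (log2 fold change -2.39, SE 0.94), which did not pass. Hba-a1, an adult alpha globin, was found in 22 of the 54 wells and in 10 kept wells.

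The 54 wells were then set against the wells with a single one of the genes. Those groups were split from the 54 wells by Pecam1 or by Ptprc itself. The direction of the endothelial or the leukocyte genes is thus tied to the rule and is given as a description. Against the wells with Ptprc only, 1 of 15632 genes passed (0.0064%), and 767 had an unadjusted p under 0.05. The gene was Cldn5, at 1231 and 915 CPM against 38.4 and 28.6 CPM, with a log2 fold change of 5.0 (SE 0.5, edgeR with Benjamini-Hochberg adjusted p = 0.0173). It did not pass without the deepest well of each sum, nor without the wells with Xist and a Y-linked gene. All 12 endothelial genes were higher in both mice, with a median log2 fold change of 4.25 beside 0.28 for all genes, of which 33.2% were higher in both mice and 19.6% lower. Of the 12 pan-leukocyte genes, 11 were lower in both mice, with a median of -0.97, and 0 passed. Laptm5 stood at 349 and 618 CPM against 978 and 1559.8 CPM. The blood cell lists differed in direction, with 0 genes passing. The monocyte and alveolar macrophage lists had medians of -1.52 and -1.60, with 7 of 9 and 5 of 6 genes lower in both mice. The T and NK cell and platelet lists had 1.55 and 3.42, with 4 of 10 and 4 of 5 higher. The B cell, neutrophil, mast cell and dendritic cell lists had -0.35, 0.29, 0.43 and 0.81.

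Against the wells with Pecam1 only, 0 of 15632 genes passed by the quasi-likelihood test of edgeR (0%), while 626 had an unadjusted p under 0.05 and DESeq2 called 195. All 12 pan-leukocyte genes were higher in both mice, with a median log2 fold change of 3.75 beside 0.27 for all genes, of which 36.98% were higher in both mice and 18.6% lower. The endothelial genes had a median of -0.70, and 9 of 12 were lower in both mice. Cd53 stood at 148.9 and 273 CPM against 6.60 and 17.6 CPM, and Cldn5 at 1231 and 915 CPM against 1347 and 1197 CPM. The monocyte and neutrophil lists had medians of 3.33 and 5.81, and the fibroblast list 0.21. The wells with Pecam1 only were chosen for Ptprc below 1 TPM, so the rise of the leukocyte genes is a description here too. The comparisons with the single-gene groups and with the kept wells share the 54 wells.

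**Figure D5:**
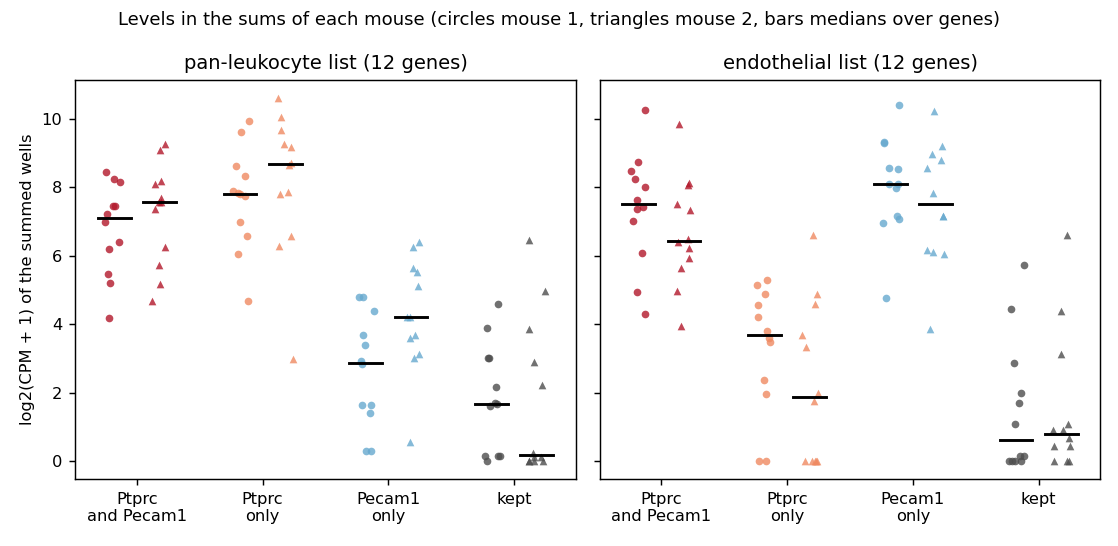
Level of each of the 12 pan-leukocyte genes (left) and 12 endothelial genes (right) as log2(CPM + 1) in the summed wells (vertical) of each group and mouse (horizontal), with bars at the median over genes. In the wells with Ptprc and Pecam1 the medians were 7.11 and 7.57 for the pan-leukocyte list and 7.52 and 6.44 for the endothelial list, and in the kept wells 1.68 and 0.18, and 0.63 and 0.80.

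No gene outside the lists passed in the comparisons with the single-gene wells, and those with the smallest unadjusted p in each direction were as follows. Against the wells with Ptprc only, Plk2, a kinase of the stress response, Hpgd, which breaks down prostaglandins, and Ly6c1, which lung endothelium and monocytes express, had log2 fold changes of 4.92, 4.98 and 4.66. Ly6c1 stood at 321 and 366 CPM against 12.97 and 14.1 CPM. Mmp3, a matrix metalloproteinase, Hdc, which makes histamine, and Anxa2, an annexin, had -5.18, -2.51 and -1.49. Against the wells with Pecam1 only, Adam8, a membrane protease of leukocytes, Tnfrsf1b, a receptor for TNF, and Fgr, a Src-family kinase of myeloid cells, lay above in both mice, Adam8 227-fold by pooled counts (interval 62.8 to 1880.4) and the other two with log2 fold changes of 4.51 and 5.58. Acbd4, Olfml2b, a matrix protein, and Gstm2, a glutathione transferase, had -3.04, -2.16 and -1.93.

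Genes through which leukocytes bind and cross endothelium were also looked at. Of 12 such partners of Pecam1, 1 rose against the kept wells, namely Selplg, the leukocyte ligand of selectins, at 102.9 and 158.2 CPM against 5.79 and 3.16 CPM (log2 fold change 4.72, SE 0.82). It did not pass without the deepest well of each sum, nor without the wells with Xist and a Y-linked gene. Itgal, a chain of the integrin LFA-1, and its ligand Icam2 were higher in both mice without passing, with log2 fold changes of 6.38 and 6.13. Icam1, another ligand, stood at 962 and 1315 CPM against 859 and 1698 CPM, where the groups overlap. Selp, the selectin of platelets and activated endothelium, had 51.2 and 101.7 CPM and no count in the kept wells, so its direction was fixed beforehand. It did not pass.

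General gene sets gave smaller differences. None of the 12 genes of the dissociation response passed, with a median log2 fold change of -0.60, nor any of 9 cell cycle genes (0.36) or of 10 housekeeping genes (-0.44). Actb stood at 1686 and 2121 CPM against 1449.7 and 1492 CPM. With library size in place of TMM, the median of all genes moved from 0.40 to 0.78: the fibroblast list stood at -1.69 and -1.70 from the median of all genes under the 2 scalings, and the pan-leukocyte list at 6.29 and 6.34.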

How the data were processed

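Single-cell wells of 2 Lgr5-CreERT2;R26-Tom mice were analysed, with the 190 single-cell wells of the Lgr6 line and 4 pools as side values. With kallisto the authors pseudo-aligned the reads to mm10 transcripts. They deposited, for every well, counts per gene (whole numbers, summed from transcripts, not normalized) and TPM on a log2(TPM + 1) scale, with further log2 values for the wells they kept. The submitters' processing notes name kallisto 0.43.0 and bcl2fastq 2.17.1.14. The annotation release is not given in the sources used here. A deposited table of scaled counts was not used. The authors kept wells with at least 2000 genes, housekeeping expression, tdTomato above 32 TPM, and Ptprc and Pecam1 below 1 TPM. The deposited values hold 23422 genes, and 230 of 235 list entries matched one of them by symbol.

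The rule for the wells, the gene lists and the tests were chosen with earlier results of these data known. Groups follow the deposited TPM. Counts were summed per mouse for 4 groups (the wells with both genes, with Ptprc only, with Pecam1 only, and kept; 158 wells). Totals ran from 3759183 to 13198680 counts a sum. edgeR 4.0.16 in R 4.3.3 was used (TMM, filterByExpr, glmQLFit and glmQLFTest with the mouse as a block, since the wells of a number come from the same animal). Genes with an adjusted p (Benjamini-Hochberg) below 0.05 are those said to have passed. The deviations of same-numbered sums correlated at 0.014 to 0.087. Ptprc and Pecam1 were left out of the test, and tdTomato was not. With 2 mice, p-values measure the spread between these sums alone. Where a group had 0 counts, the fold is a lower bound with 3 counts put in for the group, and where it had 1 to 3, a ratio of pooled counts. The filter on low counts lets in genes absent from 1 group through the others, so the direction of such genes against that group was fixed. Shares have exact Clopper-Pearson 95% intervals, and a share of 0 has instead the limit set by 3 wells of the total. Doublets were not called.

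Alternatives were DESeq2 1.42.0, limma 3.58.1 on mean log2(TPM + 1), library size, no filter on low counts, no replicate block, only the 2 groups compared, thinned wells (79000 reads, the 10th percentile rounded down), a rule at 10 TPM, wells with 2000 genes, sums without Rn45s, and each mouse left out. For the shares, list members at 10 TPM and a larger part of each list were tried. In thinned wells a list member was counted at 1 read or more. Sums without the deepest well, and without wells holding Xist and a Y-linked gene, were chosen after seeing the data. Named genes are Ptprc, Pecam1, Lgr5 and Lgr6, the first genes of each list (4 for the main lists, 2 for the others), and, outside the lists, the 5 genes in each direction with the largest changes past the threshold, alike in both mice, against kept wells, and 3 against the other groups, filled by unadjusted p. Other list members are named for their place in a list and were chosen after their values were seen. The fit was tested on simulated sums with 50 genes changed at each size: edgeR recovered 0, 1, 9 and 13 genes at log2 changes of 1, 2, 3 and 4 among 14849 genes, with 3 false calls, and DESeq2 2, 4, 21 and 24 among 15634 genes, with 109. Coordinates are from GENCODE vM21 on GRCm38. Python 3.11.15, numpy 2.4.6, pandas 2.3.3, scipy 1.17.1 and matplotlib 3.10.9 were used.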

Additional observations from a re-analysis of the deposited data

Results flagged for a closer look

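A signal appeared in wells that enter no comparison here. Transcripts of tdTomato, the reporter of the Lgr5 line, were at 1 TPM or more in 85.8% of the 190 single-cell wells of the Lgr6 line, which the study sorted on GFP, and below 1 TPM in 27 of them. tdTomato was above 32 TPM in 83.2% of these wells, and the median over the 190 wells was 1896 TPM. The study's filter on this reporter is stated for the wells of both lines. Whether the Lgr6 mice of these samples also carried the reporter allele is not given by the labels.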

How the results depend on the processing

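The share of tested genes that differed from the kept wells (1.06%) depended on the method. It was 7.04% with DESeq2 (1100 genes), 3.16% with no filter on low counts (718 genes) and 30.8% with limma on mean log2(TPM + 1) (4809 genes). It was 0.390% without the deepest well of each sum (59 genes, 58 higher and 1 lower) and 0.0539% without the wells holding Xist and a Y-linked gene (7 genes), both chosen after seeing the data. It was 1.35% with library size in place of TMM (211 genes), 0.694% with only the 2 groups compared, and 1.18% with no replicate block, the paired design being the main one. The other alternatives gave 0.976 to 1.35%. The higher genes among those called, 91.5%, were 78.3% with DESeq2, 83.1% with no filter and 83.04% with only the 2 groups compared.

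Against the wells with Ptprc only, the 1 gene (0.0064%) became 1.22% with DESeq2 (190 genes), 0.440% with no filter, 0.231% with only the 2 groups compared (33 genes), 3.32% with limma (519 genes), and 0 without the deepest wells or without the wells with Xist and a Y-linked gene. Against the wells with Pecam1 only, 0 became 1.25% with DESeq2 (195 genes), 0.690% with no filter, 0.401% with only the 2 groups compared (56 genes), 1.56% with limma (243 genes) and 0.00847% with thinned wells (1 gene). With no replicate block these counts were 1 and 0.

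Of the pan-leukocyte list, 3 genes passed, and 9 with DESeq2, 6 with library size, 10 with no filter, 7 with thinned wells, 12 with limma and 0 without the wells with Xist and a Y-linked gene. Of the endothelial list, 8 passed, and 5 without the deepest wells and 1 without the wells with Xist and a Y-linked gene. Of the fibroblast list, 0 were lower past the threshold, and 1 with DESeq2, 2 with no filter, and 1 each with only the 2 groups compared, limma and the rule at 10 TPM. The share of wells with both lineages (88.9%) was 64.3% without the wells with Xist and a Y-linked gene, 85.2 to 93.5% under the other alternatives, and 86.96 to 90.3% when each mouse was left out. Median genes per well (9996.5) ran from 7490 to 11263 when each mouse was left out. With a mouse left out no fit was run, since none would have residual degrees of freedom. The fold changes given for that case are differences of log2 CPM, with a small prior count, between the sums of the mouse left in. They are another measure than the fitted fold changes and have no count of calls.

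Of 80 named genes tested, 15 changed direction under some alternative, none of the 20 past the threshold among them. Against the kept wells, limma on mean log2(TPM + 1) turned Ednrb (0.42), Myh11 (0.47), Sftpc (7.74), Sftpb (2.23), Ager (4.68), Fos (3.79), Fosb (1.70) and Gapdh (0.25). Library size turned Sftpb (0.12), Ager (0.29), Fos (0.21) and Gapdh (0.0377), thinned wells Sftpb (0.95) and Ager (0.73), no replicate block Ager (0.011), and leaving out the deepest wells Sftpb (0.40) and Ager (0.71). Without the wells with Xist and a Y-linked gene, Kdr (-0.10) and Scgb1a1 (-0.22) turned, and Hdc (1.71) against the wells with Ptprc only. DESeq2 turned Scgb3a2 (-0.0228), as did only the 2 groups compared (-0.0124) and sums without Rn45s (-0.0644), and the rule at 10 TPM turned Upk3b (-0.90). Without mouse 1 and without mouse 2 the differences of log2 CPM in the mouse left in were -0.37 and 9.21 for Kdr and 2.84 and -9.15 for Cnn1. They were 0.22 and -0.56 for Ager, 9.33 and -2.09 for Msln, and 3.62 and -1.07 for Scgb1a1. The causes were not tested. The smallest sum held 3759183 counts. On sums simulated with 2 mice a group, edgeR recovered 13 of 50 genes changed by 4 on the log2 scale, so genes that did not pass may differ; what limited the calls was not tested.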

Other observations

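The 4 pools of sorted cells, 1 per mouse, were sequenced beside the single wells. Ptprc, Pecam1 and Cdh5 were at 0 TPM in every pool, although the pools of the Lgr5 mice had 353310 and 204948 counts and 6122 and 2652 genes. Laptm5 was at 68.7 TPM in the pool of Lgr6 mouse 1 and at 0 in the other pools.

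The 54 wells were spread over the sample numbers in the titles. In mouse 1 they were 6 of 23, 4 of 24, 8 of 24 and 13 of 24 wells over successive runs of these numbers, and in mouse 2 they were 8 of 23, 3 of 24, 6 of 24 and 6 of 24. What the numbers stand for on a plate is not given by the labels.

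Chi3l3, an older symbol of the alveolar macrophage gene Chil3, was chosen after its values were seen. It stood at 1131 and 4653 CPM in the 54 wells against 5.91 and 0.263 CPM in the kept wells, with a log2 fold change of 9.83 (SE 1.46, edgeR with Benjamini-Hochberg adjusted p = 0.0125). It did not pass without the deepest well of each sum, nor without the wells with Xist and a Y-linked gene.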
